A study of Mus musculus with 6 samples.

Results

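Dusp1, Dusp4, Dusp5, Dusp6, Spry1, Spry2, Spry4, Spred1, Spred2 and Errfi1 are 10 genes that encode feedback inhibitors of receptor tyrosine kinase signaling. They were picked by name, with earlier results of these data known. Every probe that the array files assign to 1 of these symbols was used, which gave 11 of 55681 probes and 10 of 36163 gene names. Spred1 had 2 probes and the other genes had 1 each. All 10 genes passed the filter on dim probes, since each of the 11 probes was well above background on all 6 arrays and saturated on 0. The genes tested together numbered 24648.

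The arrays measured total RNA of N18-Fms cells (N18-CFMS in the labels), a murine prostate cancer line, on single-color Agilent mouse expression arrays. N18 is a luciferase-transfected subclone of the clonal C2H line, which came from a TRAMP mouse (transgenic adenocarcinoma of the mouse prostate), and it was transduced by retrovirus with murine c-fms, the cDNA of the CSF-1 receptor, then sorted by flow cytometry. The 3 groups, of 2 arrays each, were unstimulated cells (vehicle in the labels), cells stimulated with recombinant mouse CSF-1 for 24 h, and cells stimulated in the same way for 48 h, both at 100 ng/mL. The labels state that RNA came from independent experiments, and they give 24 h and 48 h where the methods text of the study gives other times, so the labelled times were used. All 3 groups carried the transduced receptor and grew in medium with serum and dihydrotestosterone. Cells without the receptor were not analysed here, and all values come from a single subclone.

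CSF-1 binds its receptor, a tyrosine kinase, which passes the signal through RAS, RAF and MEK to the kinase ERK. ERK in turn raises transcription of genes whose products damp the same pathway. DUSP phosphatases remove phosphate from ERK and the related kinases p38 and JNK, Sprouty and Spred proteins act at the level of RAS and RAF, and Errfi1 (also called Mig6) binds the kinase domain of EGFR family receptors. Transcripts of this kind are often read as a record of ERK activity, because many of them respond to it within a short time.

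The sequences shown here are the 250 bases before the transcription start, 5′ to 3′ on the strand of the gene, of a pair of genes that rose and a pair that fell after stimulation. They come from the RefSeq promoter table of build GRCm38.p6, from which 9 windows of 8 of the 10 genes were used, with 2 starts for Errfi1. Capitals mark matches to 1 of 5 motifs searched on both strands. The motifs were the cAMP response element or CRE (TGACGTCA), the AP-1 site (TGANTCA), the ETS core (CGGAAG, which reads CTTCCG on the other strand), the STAT site or GAS (TTCNNNGAA) and the CArG box bound by serum response factor. The windows are chr19:53528895-53529144 on the plus strand for Dusp5, chr10:99262981-99263230 on the plus strand for Dusp6, chr17:26508473-26508722 on the minus strand for Dusp1 and chr3:37639697-37639946 on the plus strand for Spry1.
Dusp5: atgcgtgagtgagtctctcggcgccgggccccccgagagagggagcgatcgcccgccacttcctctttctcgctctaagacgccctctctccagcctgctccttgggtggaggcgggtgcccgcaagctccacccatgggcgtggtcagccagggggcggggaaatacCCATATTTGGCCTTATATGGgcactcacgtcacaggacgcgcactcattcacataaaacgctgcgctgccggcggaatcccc
Dusp6: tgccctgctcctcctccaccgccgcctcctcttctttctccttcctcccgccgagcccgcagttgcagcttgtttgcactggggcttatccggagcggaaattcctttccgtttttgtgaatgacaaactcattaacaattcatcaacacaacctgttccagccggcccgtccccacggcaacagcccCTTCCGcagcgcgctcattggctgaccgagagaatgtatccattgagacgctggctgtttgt
Dusp1: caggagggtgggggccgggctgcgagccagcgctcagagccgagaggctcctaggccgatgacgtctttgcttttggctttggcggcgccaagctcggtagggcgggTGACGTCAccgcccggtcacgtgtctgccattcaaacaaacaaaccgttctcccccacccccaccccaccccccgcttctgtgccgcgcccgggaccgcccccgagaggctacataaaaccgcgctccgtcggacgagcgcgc
Spry1: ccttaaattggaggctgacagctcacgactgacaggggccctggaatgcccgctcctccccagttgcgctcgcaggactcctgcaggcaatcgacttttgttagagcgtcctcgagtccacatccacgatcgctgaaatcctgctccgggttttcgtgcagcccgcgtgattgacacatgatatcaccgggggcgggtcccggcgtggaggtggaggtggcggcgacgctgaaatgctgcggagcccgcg

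Dusp5 held 2 CArG boxes that abut each other, at 82 to 73 and at 72 to 63 bases before the start. Among 32851 windows of the same length, from 27025 genes, 1.47% held a CArG box. Dusp6 held an ETS core at 62 to 57 bases before the start, on the opposite strand, and 13.6% of all windows held that motif. Spred1 (at 17 to 12 bases) and Spred2 (at 43 to 38 bases) held an ETS core too. Dusp1 held a CRE at 143 to 136 bases, and the second window of Errfi1 held a CRE at 51 to 44 bases, a motif found in 1.55% of all windows. Spry1, Spry2 and the first window of Errfi1 held 0 matches. The AP-1 site (6.75% of all windows) and the GAS (7.02%) were in 0 of the 9 windows. The windows of these genes had GC contents of 38% to 70.8%, against a median of 52.4% over all windows. These matches describe letters in a window of fixed length, and binding of a factor was not measured.

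**Figure D1:**
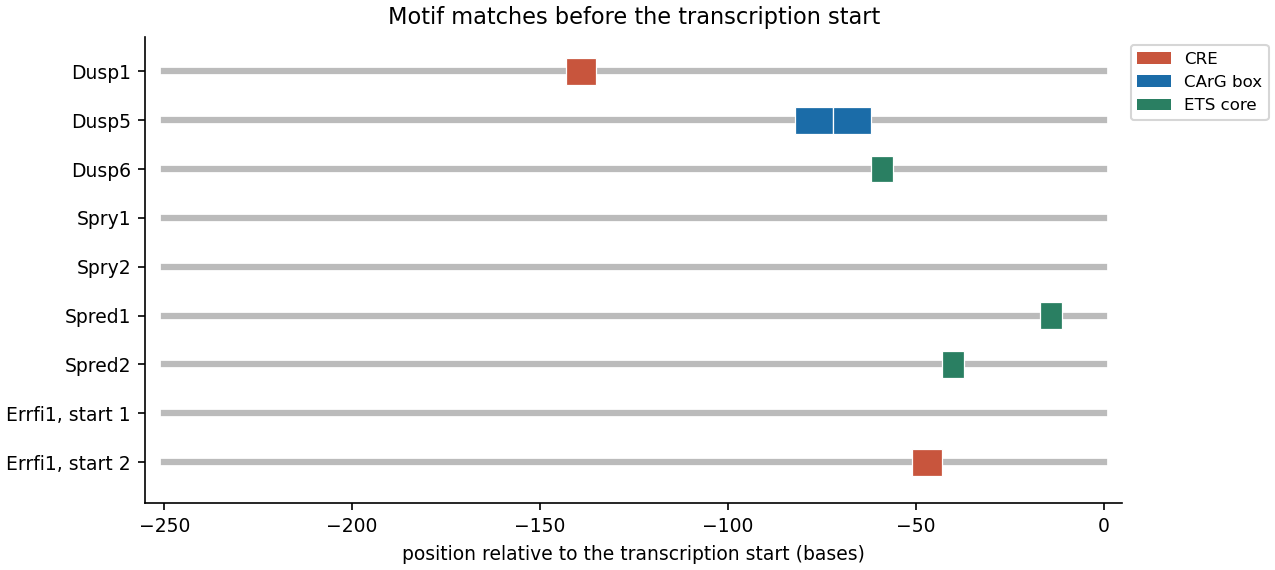
Motif matches in the 250 bases before the transcription start of 8 feedback genes (9 windows, with 2 starts for Errfi1). The x axis gives the position relative to the start in bases, grey lines are the windows and colored blocks the matches. The 2 CArG boxes of Dusp5 lie side by side, and Spry1 and Spry2 show no block.

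In the following, a level is the log2 of the background-subtracted spot signal minus the log2 of the 75th percentile of all non-control spots on that array, so that 0 is the 75th percentile. Levels are compared between arrays for a given gene and not between genes, whose probes differ. Differences are log2 differences of group means from a limma fit over all 6 arrays, with standard errors (SE), 95% confidence intervals and p-values adjusted across the full set of 24648 genes by the Benjamini-Hochberg method. A gene was called at an adjusted p under 0.05. With 2 arrays against 2, an exact permutation test cannot give a p below 0.333, so the tests rest on the spread that limma shares across genes.

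After 24 h of CSF-1, 7 of the 10 feedback genes were upregulated and 2, Dusp1 and Spry1, were downregulated. Over all genes tested, 14.0% were called at 24 h, 8.02% as higher and 5.99% as lower. After 48 h, 8 of the 10 were upregulated and the same 2 were downregulated, against 14.0% of all genes called, 6.58% as higher and 7.38% as lower. All 10 genes kept their sign from 24 h to 48 h, and 9 were called at both times. The exception, Dusp4, was not called at 24 h. Both times were set against the same 2 unstimulated arrays. The labels give no time in culture for the unstimulated cells. Effects of CSF-1 and of time in culture or cell density therefore cannot be told apart here. The stimulated arrays of a time lay beyond both unstimulated arrays in 10 of the 10 genes at 24 h and in 10 at 48 h, where 59.0% and 58.8% of all genes tested did so. The median log2 difference of the 10 genes was 1.20 at 24 h and 0.89 at 48 h, beside 0.037 and -0.044 over all genes tested.

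**Figure D2:**
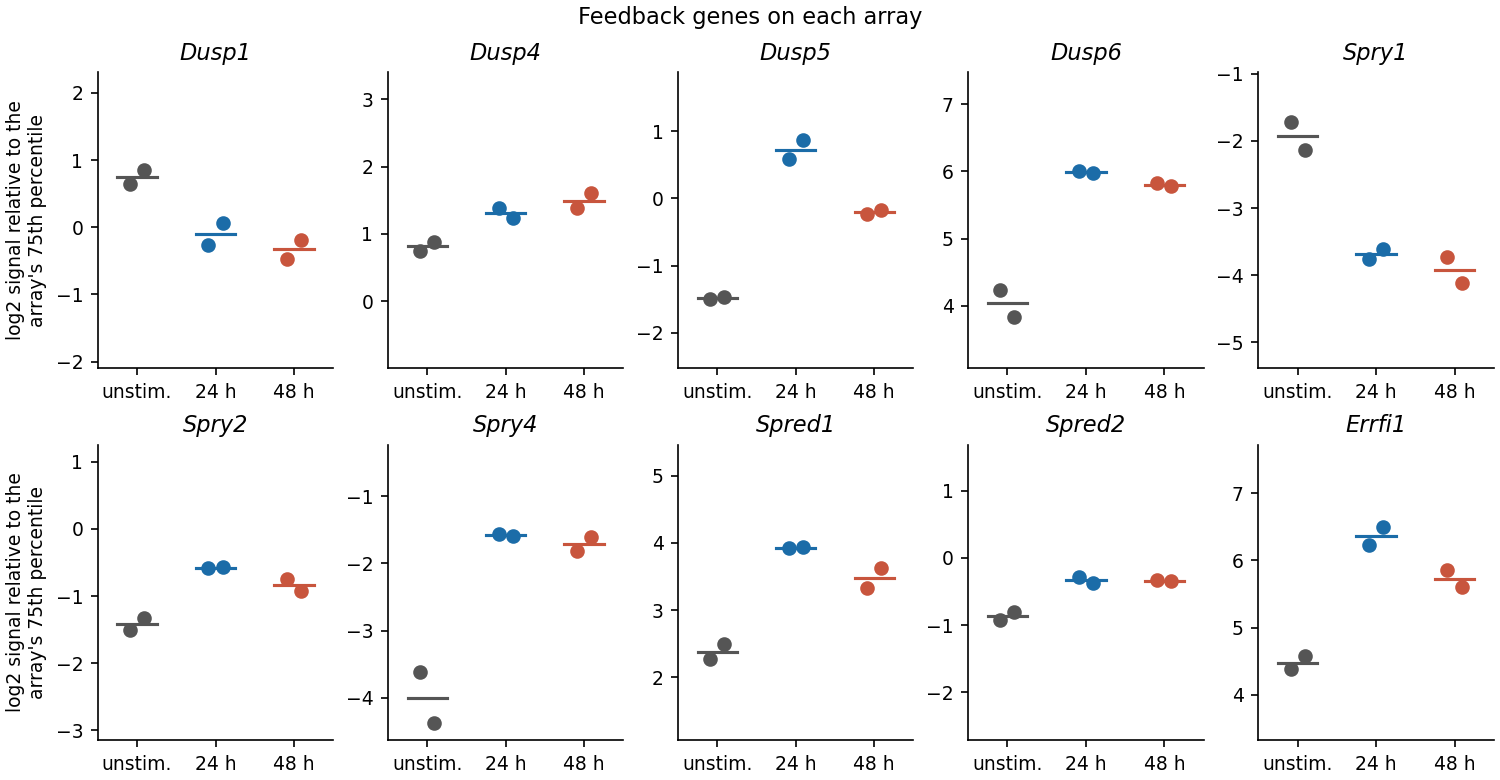
Level of each feedback gene on each of the 6 arrays (y axis, log2 signal relative to the 75th percentile of the array), unstimulated or stimulated with CSF-1 for the labelled times, with points for arrays and lines for group means. Every panel spans the same number of log2 units, and in every panel both stimulated groups lie clear of the unstimulated arrays, below them for Dusp1 and Spry1 and above them for the other 8 genes.

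Among the DUSP phosphatases, Dusp6 and Dusp5 had the larger increases, Dusp4 a smaller one at 48 h, and Dusp1 fell. Dusp6 encodes a cytoplasmic phosphatase with high preference for ERK. Its level was 4.24 and 3.84 on the unstimulated arrays, 6 and 5.97 at 24 h, and 5.82 and 5.78 at 48 h. All 4 stimulated arrays were higher than both unstimulated arrays, by far more than arrays of a group differed. The increase was 3.85-fold at 24 h (log2 difference 1.95, SE 0.16, limma adjusted p = 0.0038) and 3.37-fold at 48 h (1.75, SE 0.16, adjusted p = 0.00439).

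Dusp5, which encodes a nuclear phosphatase with a preference for ERK, had the largest difference between the stimulation times among the 10 genes. Its level was -1.50 and -1.47 in unstimulated cells, 0.58 and 0.87 at 24 h, and -0.24 and -0.18 at 48 h. The 24 h arrays were the highest, the 48 h arrays lay in between, and no groups overlapped. The increase was 4.64-fold at 24 h (log2 difference 2.21, SE 0.13, limma adjusted p = 0.00204) and 2.42-fold at 48 h (1.28, SE 0.13, adjusted p = 0.0067). This is the gene whose window holds the paired CArG boxes.

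Dusp4, a nuclear phosphatase of ERK and JNK, moved less. Its level was 0.75 and 0.88 in unstimulated cells, 1.38 and 1.23 at 24 h, and 1.38 and 1.61 at 48 h. The log2 difference was 0.49 at 24 h (95% interval 0.15 to 0.84, limma adjusted p = 0.072) and 0.68 at 48 h (0.34 to 1.03, adjusted p = 0.0334). The 48 h call was lost in each of the 6 fits that left out 1 array, with values of 0.57 to 0.80 and adjusted p up to 0.143. After normexp background correction, or with an intensity trend in the prior spread, the 24 h difference was called too (adjusted p of 0.0259 to 0.0437).

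Dusp1 encodes a nuclear phosphatase that acts on p38, JNK and ERK, and it went the other way. Its level was 0.65 and 0.85 in unstimulated cells, -0.26 and 0.06 at 24 h, and -0.47 and -0.19 at 48 h. Both unstimulated arrays were higher than all 4 stimulated arrays. The decrease was 1.8-fold at 24 h (log2 difference -0.85, SE 0.17, limma adjusted p = 0.0358) and 2.11-fold at 48 h (-1.08, SE 0.17, adjusted p = 0.0205). With any 1 of the 6 arrays left out, the 24 h decrease was no longer called (-1.01 to -0.69, adjusted p up to 0.15). At 48 h the call was lost without either unstimulated array or either 48 h array (-1.22 to -0.94, adjusted p up to 0.0965).

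The probes of these genes lie, in build mm9 as annotated in the files, at chr10:98729985-98730044 for Dusp6, chr19:53615682-53615741 for Dusp5, chr8:35882045-35882104 for Dusp4 and chr17:26642526-26642536 for Dusp1. The Dusp1 interval is shorter than the others as the files give it. The exon that each probe reads was not analysed here. In build GRCm38.p6 the RefSeq gene spans are chr10:99263231-99267489 for Dusp6, chr19:53529145-53541809 for Dusp5, chr8:34807610-34819894 for Dusp4 and chr17:26505591-26508472 for Dusp1.

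The Sprouty genes split, with Spry4 and Spry2 upregulated and Spry1 downregulated. Sprouty proteins are membrane-associated inhibitors that act between receptor and RAF. Spry4 had levels of -3.62 and -4.38 in unstimulated cells, -1.57 and -1.60 at 24 h, and -1.81 and -1.61 at 48 h. Its unstimulated arrays differed by 0.76, the widest gap between arrays of a group among the 10 genes, and all 4 stimulated arrays still lay above both. The increase was 5.32-fold at 24 h (log2 difference 2.41, SE 0.26, limma adjusted p = 0.00734) and 4.88-fold at 48 h (2.29, SE 0.26, adjusted p = 0.00817). After normexp correction, which compresses dim signals, the log2 difference was 1.27 to 1.39 at 24 h and 1.19 to 1.26 at 48 h, with the call kept.

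Spry2 had levels of -1.51 and -1.33 in unstimulated cells, -0.59 and -0.57 at 24 h, and -0.74 and -0.93 at 48 h. The groups did not overlap. The increase was 1.79-fold at 24 h (log2 difference 0.84, SE 0.13, limma adjusted p = 0.0168) and 1.5-fold at 48 h (0.58, SE 0.13, adjusted p = 0.0412). The 24 h call was lost without either unstimulated or either 24 h array (0.75 to 0.93, adjusted p up to 0.0799), and the 48 h call without any 1 of the 6 arrays (0.49 to 0.68, adjusted p up to 0.157).

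Spry1 was the most strongly lowered of the 10 genes. Its level was -1.72 and -2.13 in unstimulated cells, -3.76 and -3.61 at 24 h, and -3.73 and -4.12 at 48 h. The stimulated arrays of both times overlapped each other and lay well below the unstimulated arrays. The decrease was 3.39-fold at 24 h (log2 difference -1.76, SE 0.20, limma adjusted p = 0.00866) and 4-fold at 48 h (-2, SE 0.20, adjusted p = 0.00608). Its raw signals were 166.7 and 139.9 in unstimulated cells and between 34.64 and 48.81 on the 4 stimulated arrays, which is dim but well above background on each. After normexp correction the log2 difference was -0.97 to -0.81 at 24 h and -0.97 to -0.96 at 48 h, still called.

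Both Spred genes were upregulated, Spred1 by more than Spred2. Spred proteins are related to the Sproutys and bring the RAS GTPase-activating protein neurofibromin to the membrane. On its brighter probe, Spred1 had levels of 2.27 and 2.49 in unstimulated cells, 3.92 and 3.94 at 24 h, and 3.33 and 3.63 at 48 h. All stimulated arrays were higher than the unstimulated arrays, and the 24 h arrays were above the 48 h arrays. The increase was 2.94-fold at 24 h (log2 difference 1.56, SE 0.15, limma adjusted p = 0.00597) and 2.15-fold at 48 h (1.1, SE 0.15, adjusted p = 0.0139). The second Spred1 probe gave log2 differences of 1.64 and 1.15. The 48 h call was lost without unstimulated replicate 1 (0.99, adjusted p = 0.0766), unstimulated replicate 2 (1.22, adjusted p = 0.0519) or 48 h replicate 2 (0.95, adjusted p = 0.0641).

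Spred2 changed by less. Its level was -0.92 and -0.80 in unstimulated cells, -0.29 and -0.38 at 24 h, and -0.33 and -0.35 at 48 h. The stimulated arrays of both times fell in the same narrow range, above the unstimulated arrays. The increase was 1.44-fold at 24 h (log2 difference 0.53, SE 0.11, limma adjusted p = 0.0384) and 1.44-fold at 48 h (0.52, SE 0.11, adjusted p = 0.0383). Both calls were lost with any 1 array left out (0.46 to 0.59 at each time, adjusted p up to 0.162 at 24 h and 0.146 at 48 h).

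Errfi1, whose product inhibits EGFR and its relatives directly, was upregulated at both times. Its level was 4.38 and 4.58 in unstimulated cells, 6.23 and 6.50 at 24 h, and 5.86 and 5.60 at 48 h. The groups were fully separated, with the 24 h arrays highest. The increase was 3.69-fold at 24 h (log2 difference 1.88, SE 0.16, limma adjusted p = 0.00435) and 2.37-fold at 48 h (1.25, SE 0.16, adjusted p = 0.0118). The 48 h call was lost without unstimulated replicate 1 (1.15, adjusted p = 0.0714), unstimulated replicate 2 (1.35, adjusted p = 0.0524) or 48 h replicate 1 (1.11, adjusted p = 0.0561).

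The probes of Spry1, Spry2, Spred1, Spred2 and Errfi1 lie, in build mm9, at chr3:37543403-37543462 for Spry1, chr14:106291845-106291904 for Spry2, chr2:117005906-117005965 and chr2:117004952-117005011 for Spred1, chr11:19922416-19922475 for Spred2 and chr4:150242886-150242945 for Errfi1. The RefSeq spans in build GRCm38.p6 are chr3:37639947-37644599 for Spry1, chr14:105891947-105896819 for Spry2, chr2:117121071-117182279 for Spred1, chr11:19924442-20024026 for Spred2 and chr4:150853796-150868889 for Errfi1.

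**Figure D3:**
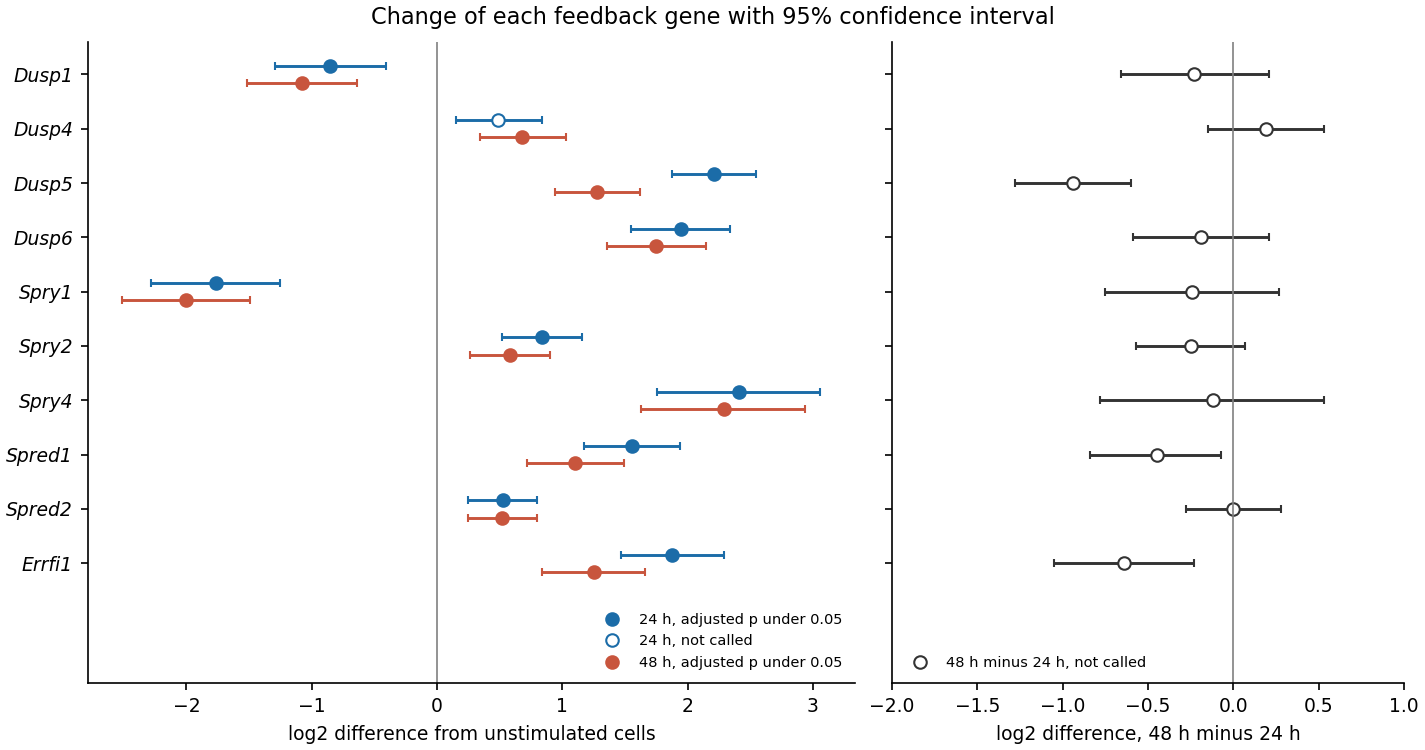
Log2 difference (x axis) of each feedback gene with its 95% confidence interval from limma, at 24 h and 48 h against unstimulated cells (left) and at 48 h minus 24 h (right). Filled points were called at an adjusted p under 0.05. At left, the intervals of Dusp1 and Spry1 lie below 0 and those of the other genes above 0. At right no point is filled, and the intervals of Dusp5, Spred1 and Errfi1 exclude 0.

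Between 24 h and 48 h, 0 of the 10 genes were called, as were 0 of all genes tested (0%). At an unadjusted p under 0.05, limma gave 3 of the 10, Dusp5, Spred1 and Errfi1, against 13.6% of all genes. Dusp5 was 1.91-fold lower at 48 h than at 24 h (log2 difference -0.94, 95% interval -1.28 to -0.60, limma adjusted p = 0.121). Errfi1 was 1.56-fold lower (-0.64, interval -1.05 to -0.23, adjusted p = 0.213) and Spred1 1.37-fold lower (-0.45, interval -0.84 to -0.07, adjusted p = 0.299). In 6 of the 10 genes both 48 h arrays lay below both 24 h arrays, and 47.9% of all genes had no overlap in 1 direction or the other. Dusp4 was the single gene with a positive difference (0.19, interval -0.15 to 0.53). For Dusp6 the interval was -0.59 to 0.21, for Spry4 -0.78 to 0.53 and for Spred2 -0.28 to 0.28, so changes within those ranges were not excluded. With normexp correction or an intensity trend, 1 gene, Dusp5, was called.

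The first 24 h replicate was hybridised on a slide apart from the other 5 arrays and scanned separately, and it had the highest share of spots well above background. With slide as a factor, which is the same as leaving that array out, 6 of the 10 genes were called at 24 h and all 10 had the same sign. The log2 differences within the shared slide were 2.36 for Dusp5, 1.93 for Dusp6, 2.40 for Spry4, 1.57 for Spred1, 2.02 for Errfi1 and -1.69 for Spry1, all called. They were -0.69 for Dusp1, 0.42 for Dusp4, 0.85 for Spry2 and 0.48 for Spred2, not called (limma adjusted p of 0.0795 to 0.257).

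Across 21 alternatives of processing or of arrays left out, each of the 10 genes kept its sign at 24 h and at 48 h. With any 1 array left out, 6 genes stayed called at 24 h in all 6 fits (Dusp5, Dusp6, Spry1, Spry4, Spred1 and Errfi1), and 4 stayed called at 48 h (Dusp5, Dusp6, Spry1 and Spry4). These 6 fits are not separate checks. Leaving out an array of a compared group leaves that group with 1 array, assumed to vary like the others, and the fits without either 48 h array gave the same 24 h values, as those without either 24 h array gave the same 48 h values.

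**Figure D4:**
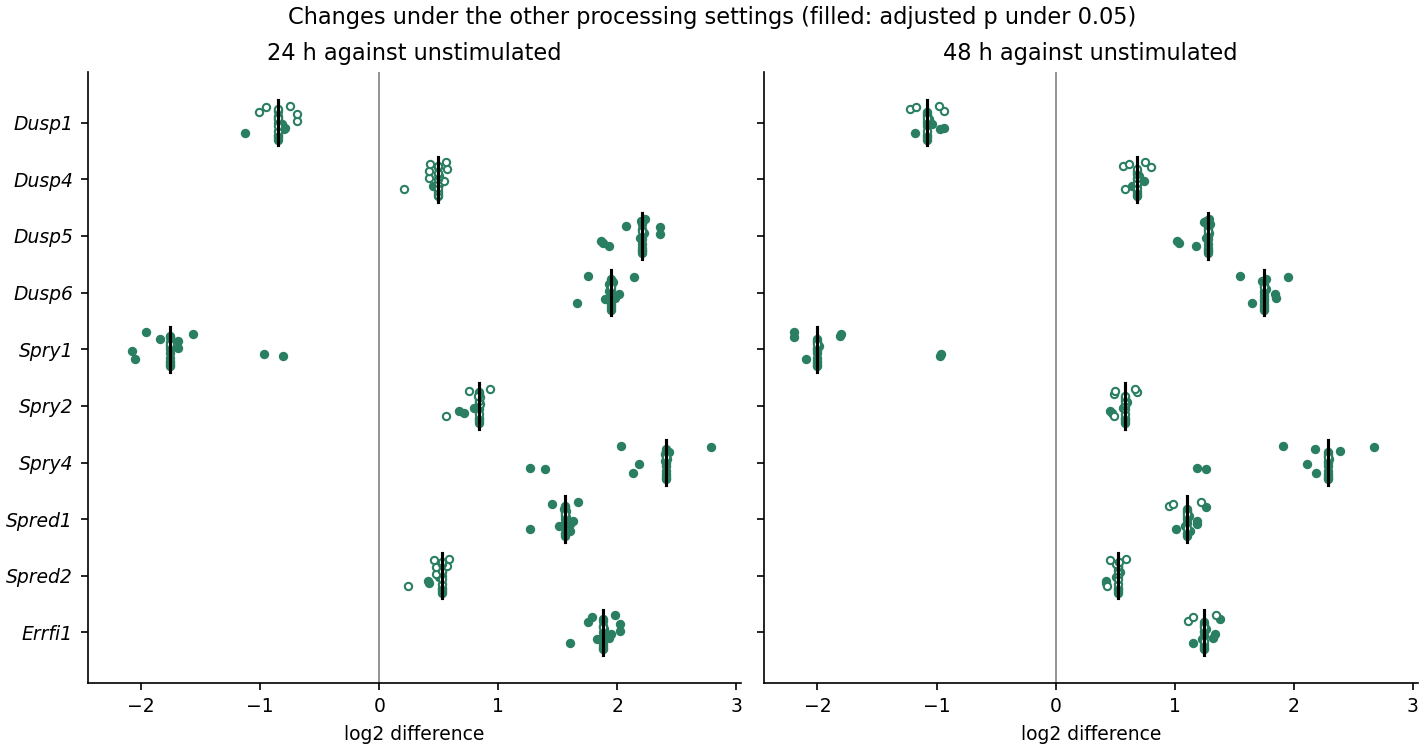
Log2 difference (x axis) of each feedback gene from unstimulated cells at 24 h (left) and 48 h (right) under 21 alternatives, 1 point each, with the black line at the value reported in the text. Filled points had an adjusted p under 0.05. No point crosses 0, and the outlying points of Spry1 and Spry4 near 1 log2 unit are the normexp settings.

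The Csf1r probes read the transcript of the receptor, and whether it came from the transduced cDNA or from the gene of the line cannot be told apart here. On the brightest of the 3 probes, Csf1r had levels of 4.88 to 5.34 over the 6 arrays. Its log2 difference was 0.22 at 24 h (limma adjusted p = 0.367) and -0.07 at 48 h (adjusted p = 0.793), so neither was called. The other probes gave 0.19 and 0.03 at 24 h and -0.08 and 0.32 at 48 h.

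Markers were checked because the line is described as epithelial. Of 9 epithelial markers, 5 were well above background on all arrays, whereas Cdh1, the defining cadherin, was so on 0 arrays, Epcam on 1 and Krt18 on 3. Of the 7 tested, 0 were called at 24 h and 1 at 48 h, beside 14.0% of all genes at each time. The 1 called was Krt8, a keratin of simple epithelia, which was higher (log2 difference 1.98, limma adjusted p = 0.0106, after 0.74 and 0.112 at 24 h). At an unadjusted p under 0.05, limma gave 2 of the 7 at 24 h, Krt8 and Krt18, both higher, where 31.3% of all genes passed. Krt18 was well above background on 0 unstimulated arrays and had passed the filter on dim probes through a stimulated group. Its p-value therefore does not count as an ordinary test. The summed signal of the 9 epithelial markers, in multiples of the 75th percentile, was 1.29 to 1.3 in unstimulated cells, 1.47 to 1.55 at 24 h and 1.73 to 1.84 at 48 h. The sum of 9 macrophage markers, 5 of them well above background on all arrays and led by Itgam, was 40.2 to 44.8, 30.7 to 38.3 and 27.5 to 36.1. Single macrophage markers did not follow that sum. Of the 7 tested, 2 were called higher and 0 lower at each time (beside 14.0% of all genes called), with medians of 0.57 and 0.15. Mpeg1, a perforin-like gene of macrophages, rose by 0.95 at 24 h and 3.12 at 48 h (limma adjusted p = 0.0282 and 0.00142), and Cd14, a receptor for bacterial lipid, by 0.87 and 0.69 (adjusted p = 0.0102 and 0.0191). Itgam had differences of -0.43 and -0.65 that were not called (adjusted p = 0.264 and 0.12). All 6 fibroblast markers were well above background on all arrays. Their sum, made up almost wholly of Col1a1 and Col1a2, was 320 to 324, 136 to 145 and 120 to 163. Of these 6, 2 were called higher and 3 lower at 24 h, and 1 higher and 3 lower at 48 h (beside 14.0% of all genes called). Dcn was called higher at both times (log2 differences 2.08 and 2.78) and Pdgfra at 24 h, whereas Col1a1, Col1a2 and Pdgfrb were called lower at both. Of all the markers, some thus rose and others fell with stimulation, and their part in the results was not tested. In bulk RNA, fewer cells of a kind and less RNA per cell cannot be told apart.

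Other genes of the pathway were read from lists chosen by known function, with earlier results of these data known. Among 23 genes tied to the output of ERK, more were upregulated than downregulated. At an adjusted p under 0.05, 13 were upregulated and 2 downregulated at 24 h, and 9 were upregulated and 1 downregulated at 48 h. The shares called were 65.2% and 43.5%, beside 14.0% of all genes at each time, and the median log2 difference was 0.66 at 24 h and 0.37 at 48 h. The counts depended on single arrays. The 15 calls at 24 h became 5 to 7 without either unstimulated or either 24 h array, and 8 at an unadjusted p with a 2-fold change. The 10 calls at 48 h became 2 without 48 h replicate 2, 3 without either unstimulated array, and 7 without any other array. The rule of an unadjusted p with a 2-fold change was met at 24 h by 1894 of all 24648 genes. The lowered genes were Srf, which encodes serum response factor, at both times (-0.62 and -0.86) and Ccnd1, which encodes cyclin D1, at 24 h (-0.76). The raised genes include Bcl2l11 (1.44 and 0.95), whose product BIM promotes apoptosis and is known as a target that ERK lowers.

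Ier3, an immediate early gene, had levels of 1.45 and 1.56 in unstimulated cells, 4.26 and 4.68 at 24 h, and 3.49 and 3.91 at 48 h. Its log2 difference was 2.96 at 24 h and 2.2 at 48 h (limma adjusted p = 0.00283 and 0.00497). Fos, a subunit of AP-1, rose by log2 differences of 2.92 and 2.08 (adjusted p = 0.00846 and 0.02). Egr1, a zinc finger factor, rose by 2.46 and 1.70 (adjusted p = 0.0159 and 0.0395).

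The remaining DUSP genes, with Styx counted among them, moved in both directions. Of 19 such genes on the arrays, 15 passed the filter on dim probes. The 3 downregulated at 24 h were Dusp12, Dusp18 and Styx. Of 15 tested, 2 were upregulated and 3 downregulated at 24 h (33.3%, beside 14.0% of all genes), and 2 were upregulated and 0 downregulated at 48 h (13.3%, beside 14.0%), with medians of 0.01 and -0.23. With 1 array left out, 0 to 3 were called at 24 h and 0 to 2 at 48 h. Dusp13 was the 1 called at both, with levels of -3.84 and -3.87 in unstimulated cells, -2.94 and -2.92 at 24 h and -2.53 and -1.95 at 48 h. Its log2 difference was 0.92 at 24 h and 1.62 at 48 h (limma adjusted p = 0.0424 and 0.0107), and its dimmer probe gave 0.56 and 0.66.

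Of 22 other inhibitors of RAS and receptor tyrosine kinases, 4 were upregulated and 0 downregulated at each time, with medians of 0.20 and 0.19. These 18.2% lie near the 14.0% of all genes called, and with 1 array left out 1 to 3 were called at 24 h and 1 to 2 at 48 h. Spred3, the third Spred gene, was well above background on 0 of the 2 unstimulated arrays and on all 4 stimulated arrays. Its measured mean was at least 5.36-fold higher at 24 h and at least 3.53-fold higher at 48 h. The limma fit of the measured signals gave log2 differences of 2.59 and 1.99 (adjusted p = 0.00176 and 0.00259). Spred3 had passed the filter on dim probes through its stimulated groups, where it was high. These p-values therefore do not count as an ordinary test, and the 4 genes upregulated at each time include Spred3. Such a lower limit sets the mean of the stimulated arrays against the dimmest signal called well above background on each unstimulated array, or the measured signal where that was higher. Ptpn6, the phosphatase SHP-1, rose by log2 differences of 1.27 and 1.16 (adjusted p = 0.0277 and 0.0347). Rasa3, a RAS GTPase-activating protein, rose by 0.71 and 0.78 (adjusted p = 0.0215 and 0.018).

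The cascade that these inhibitors act on was read at the transcript level too. Of 25 adaptors, RAS proteins and kinases from receptor to ERK, 2 were upregulated and 0 downregulated at 24 h, and 2 were upregulated and 2 downregulated at 48 h (8% and 16%, beside 14.0% of all genes). With 1 array left out, 0 to 3 were called at each time. The median was -0.17 at both times. Map2k1, which encodes the kinase MEK1, was the gene called at both, with log2 differences of 1.09 and 1.25 (limma adjusted p = 0.0248 and 0.0183). Of 10 p38 and JNK pathway kinases, 1 was upregulated and 1 downregulated at each time (20%, beside 14.0%). Map2k6, the kinase MKK6 upstream of p38, rose by 1.38 and 1.71 (adjusted p = 0.00543 and 0.00278).

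The receptors that Errfi1 inhibits gave 0 calls among 4 genes at each time, and 1 of the 4 had an unadjusted limma p under 0.05 at each time, Egfr at 24 h and Erbb4 at 48 h, where 31.3% and 30.9% of all genes did. Egfr had levels of -2.74 and -1.83 in unstimulated cells, -0.89 and 0.14 at 24 h and -2.10 and -0.37 at 48 h. Arrays of a group lay far apart, and the 24 h difference of 1.91 had an interval of 0.20 to 3.62 (adjusted p = 0.126). Erbb4 was well above background on the 48 h arrays and on 0 of the other 4. Its levels at 48 h, -2.01 and -4.73, also lay far apart. Its measured mean was at least 3-fold higher than in unstimulated cells, a limit that leaves out this spread (limma adjusted p = 0.0534, not called). Erbb4 had passed the filter on dim probes through its 48 h arrays alone, the arrays where it was high. Its p-values at 48 h therefore do not count as an ordinary test.

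**Figure D5:**
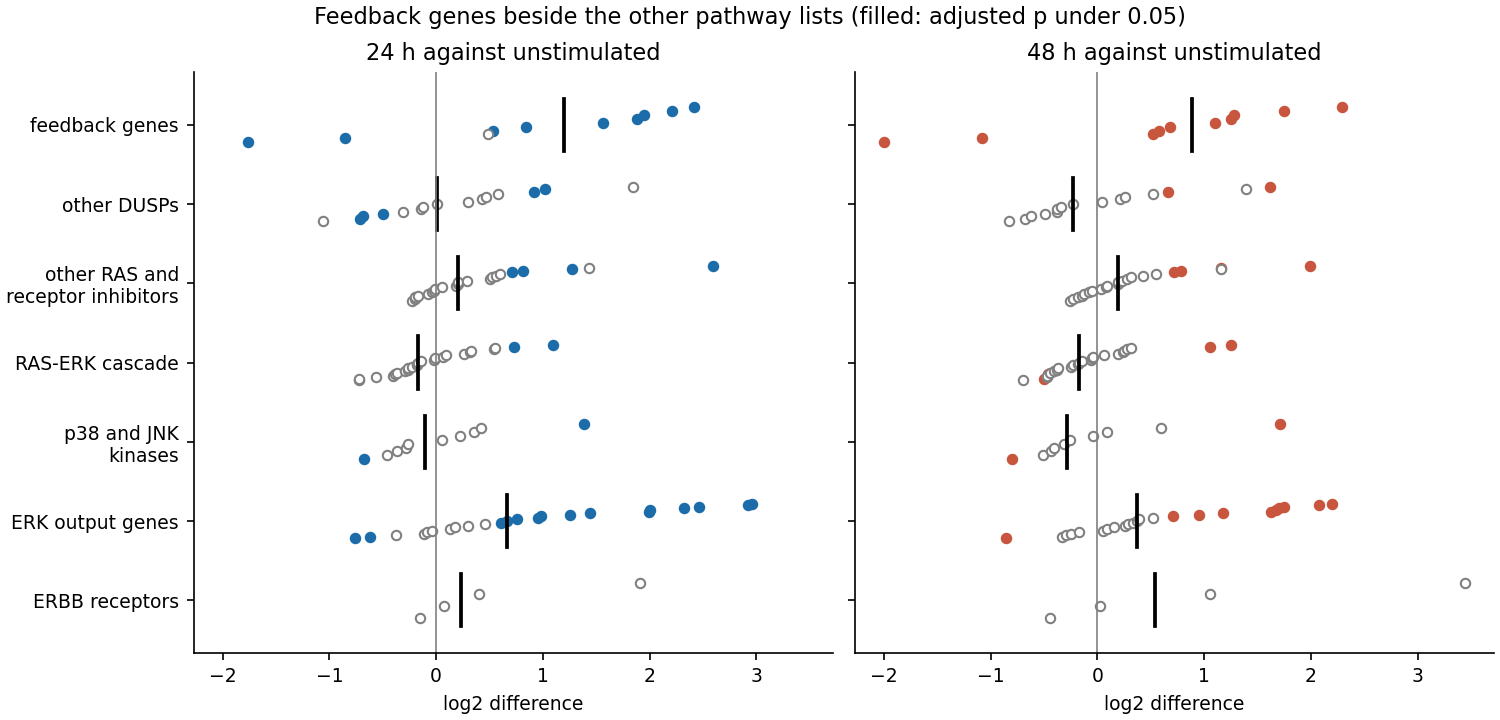
Log2 difference from unstimulated cells (x axis) at 24 h (left) and 48 h (right) of every tested gene in the feedback set and in 6 other lists of the pathway. Filled points had an adjusted p under 0.05 and black lines mark list medians. The medians of the feedback genes are 1.20 and 0.89, and those of the ERK output genes 0.66 and 0.37.

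The genes with profiles nearest to 3 of the feedback genes were found from the root mean square difference, over the 6 arrays, of levels counted from the unstimulated mean, among 13852 tested genes with a RefSeq symbol. Nearest to Dusp6 were Nmnat2, an enzyme of NAD synthesis (0.126), and Prl2c5, a prolactin family gene (0.135) whose near copies may share its probe. Nearest to Spry4 were Hdc, histidine decarboxylase (0.101), and Zfp36, which encodes the RNA-binding protein tristetraprolin (0.191), both not well above background on the 2 unstimulated arrays, so that their distances rest on dim signals. Nearest to Errfi1 were Mt4, a metallothionein (0.123), and the early growth response gene Egr2 (0.175). Hdc and Zfp36 had passed the filter on dim probes through stimulated groups. On the measured means, with the spread between arrays left out, Zfp36 was at least 5.57-fold higher at 24 h and at least 4.34-fold higher at 48 h. On the same measure, Hdc was at least 2.24-fold and 2.17-fold higher, with 1 of its 2 arrays at 48 h well above background.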

How the data were processed

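RNA of N18-Fms cells was hybridised to 6 single-color Agilent arrays, in 3 groups of 2 taken from the sample titles. The authors deposited the scanner output of Agilent Feature Extraction (version 11.0.1 in the submitters' processing notes), whose processed signal is a linear intensity, background-subtracted and not normalized between arrays. The same deposited files hold the mean and background intensity, and flags that mark outliers, saturation and signal over background. A second deposited file gives log2 values of 44569 probes, whose normalization is not given in the sources used here. After removal of a constant for each probe and array 99.78% of the values of 44323 probes were within 0.05 of the log2 signal. Fold changes or p-values computed by the authors were not used here.

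Spots marked as outliers were dropped, spots that repeat a probe were averaged, and the 75th percentile of the 59305 non-control spots was subtracted on the log2 scale. This left out 303 probes with every spot flagged on some array. The brightest probe stood for each of 36028 genes, and the test covered the 24648 genes whose signal was well above background on 2 of 2 arrays in some group. Between 58.7% and 72.0% of spots were well above background, 0 were saturated, and the 75th percentile was 550.3 to 610.9. Replicate arrays had Pearson correlations of 0.9926 to 0.9936 across genes, which are not independent. Precision is limited by the number of arrays.

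The comparisons used limma 3.58.1 (lmFit and eBayes, 2-sided, 3 residual and 2.39 prior degrees of freedom) in R 4.3.3 with data.table version 1.17.8. The procedure was tested on simulated data. P-values measure the spread between these arrays. The 10 genes, the pathway lists and the markers were chosen with earlier results of these data known. Named genes were all 10 genes, Csf1r, up to 3 genes of each other list with the largest mean change among those called at both times with the same sign, and the 2 nearest profiles for Dusp6, Spry4 and Errfi1. The epithelial list holds 9 genes here, and 1 further marker is not reported here. Other genes (Srf, Ccnd1, Bcl2l11, Egfr, Erbb4 and the markers) were named after their values were seen. Alternatives were quantile normalization, median centring, normexp (offset 50) with either scaling, the authors' log2 values, other filters and probe rules, an intensity trend, fits of 2 groups, the methods' t-test, an unadjusted p with 2-fold change, a replicate block, slide as a factor, and each array left out.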

Additional observations from a re-analysis of the deposited data

How the results depend on the processing

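Of 210 values for the 10 genes at 24 h (21 alternatives each), 169 kept direction and side of the threshold, 38 lost the call and 3 gained it. At 48 h 153 of 210 kept both and 57 lost the call. The number of genes called out of 10 at 24 h was 9 and at 48 h 10, and with 1 array left out it was 6 to 7 and 4 to 7, with 0 between 24 h and 48 h. Without a filter on dim probes, when 36028 genes are tested, 6 and 4 were called. An unadjusted p with a 2-fold change gave 6 and 7, beside 1894 and 1599 of all 24648 genes. Median centring gave 7 and 7, beside 4903 and 3094 of all genes. The methods' t-test gave 0 and 0 after Benjamini-Hochberg adjustment, for these genes and for all genes. At its unadjusted threshold it gave 10 and 10 of the 10 genes and 5403 and 5485 of all genes. With a 2-fold change it gave 6 and 7 of the 10, a rule for which all genes were not counted. Between 24 h and 48 h, normexp with the 75th percentile, normexp with quantile normalization and the intensity trend each called 1 gene. The correlations of replicate differences between groups were 0.128, 0.0943 and 0.199. These values, low and positive, cannot show whether the replicate numbers pair the arrays. With the replicate numbers as a block, 9 and 9 genes were called, Spry2 at 48 h being lost (limma adjusted p = 0.0529).

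Median centring moved the median of all genes at 24 h from 0.037 to -0.247 and at 48 h from -0.044 to -0.144. The share of calls that were higher went from 57.3% to 24.4% at 24 h and from 47.1% to 38.9% at 48 h, and with normexp and the 75th percentile it was 47.0% and 38.4%. Counted from the median of all genes, the median difference of the 10 genes was 1.16 at 24 h and 0.94 at 48 h under both scalings. Calls among all genes at 24 h numbered 3453, with 4903 under median centring, 1321 without a filter and 898 to 2539 with 1 array left out. At 48 h they numbered 3440, with 869 without a filter, 5477 with the intensity trend and 889 to 2116 with 1 array left out. Directions turned between 24 h and 48 h only, for 3 genes with differences near 0: Spry1 at 0.08 with quantile normalization and 0.01 with normexp and quantile normalization, Spry4 at 0.06 with median centring, and Spred2 at 0.01 with quantile normalization, normexp with quantile normalization, the authors' log2 values or without 48 h replicate 2, 0.18 with median centring and 0.04 with slide as a factor or without 24 h replicate 1 (-0.05 to 0.04 with 1 array left out). The cause of these changes was not tested.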
